A study of Cladosporium europaeum with 50 samples.

Results

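The authors listed 920 genes as changed in mycelium of Cladosporium europaeum strain F32 exposed to polychlorinated biphenyls (PCB). Among them, 7 genes were annotated as enzymes, or as domains of enzymes, of aromatic ring and quinate breakdown. They were picked by annotation from the lists of all comparisons: 2 intradiol ring-cleavage dioxygenases (ptg000021l.252 and ptg000008l.232), phenol 2-monooxygenase (ptg000007l.259), catabolic 3-dehydroquinase (ptg000008l.233), a carboxymuconolactone decarboxylase-like protein (ptg000015l.273), a carboxymuconate lactonizing enzyme (ptg000015l.409) and a protein with the substrate binding domain of dihydroxypyridine monooxygenase (ptg000002l.374). Because the genes come from those lists, their fold changes and adjusted p-values describe them and are no independent test. The annotations do not say which ring compound each dioxygenase opens, and 3 of the 7 annotations name only a domain or a likeness.

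The fungus, isolated from soil with a history of PCB pollution, was grown in liquid mineral medium on 5 g/L glucose, without PCB as the control or with 6 mg/L of PCB52, PCB101, PCB153 or PCB180. Its polyadenylated RNA was sequenced at 24 h and at 96 h. The labels give 5 samples for each of the 10 groups, all of the same strain and on the same glucose. From PCB52 to PCB180 in this order, each congener carries more chlorine atoms than the one before it. The labels do not say that replicates were separate cultures, so the authors' p-values may measure technical spread alone.

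In fungi, many aromatic compounds are first hydroxylated to a ring with neighbouring hydroxyl groups, such as catechol or protocatechuate. An intradiol dioxygenase then opens the ring between these hydroxyl groups, and lactonizing enzymes close the resulting muconate to a lactone on the way to ketoadipate and central metabolism. Quinate joins the same route, since a catabolic 3-dehydroquinase makes dehydroshikimate, which is turned into protocatechuate. In Neurospora crassa and Aspergillus nidulans the genes of quinate breakdown lie together in a cluster.

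The values available are the authors' comparisons of congener and control within each hour, as log2 fold changes with standard errors (SE). Values per sample were not used, and library depth is unknown. Against control, genes were listed where the adjusted p lay under 0.05 and the level differed by 1 or more on the log2 scale, and a gene is said to have risen or fallen only where it was listed. The SE at 96 h fitted 4 control and 4 PCB180 samples better than the 5 of the labels, as given with the differences between congeners.

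At 96 h 3 members rose and 0 fell under PCB101, where 0.0707% of the 11313 genes tested were listed as higher and 0.00884% as lower. Under PCB153 6 members rose and 1 fell, beside 1.82% of 10874 tested genes listed as higher and 0.579% as lower. Under PCB180 4 rose and 1 fell, beside 4.59% and 2.67% of 11313 genes. These shares are given as background only, because the members were picked from the same lists. No member was listed for PCB52 at 96 h, for PCB52, PCB153 or PCB180 at 24 h, or in the authors' direct comparison of PCB180 with PCB153. The authors' lists held no rows at all for PCB101 at 24 h. At 96 h 0.00884% of tested genes were listed as lower for PCB52. At 24 h the shares listed were 0.00884% as higher for PCB52, 0.0354% as higher and 0.0177% as lower for PCB153, and 0.0177% as higher for PCB180. In the direct comparison 0.00884% were listed as higher. Of the 7 members, 2 were listed in 3 comparisons, 4 in 2 and 1 in 1, which makes 15 of the 1102 listed combinations of gene and comparison.

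Phenol 2-monooxygenase (ptg000007l.259), a flavin enzyme that adds a hydroxyl group to phenol to give catechol, rose under PCB101, PCB153 and PCB180. Its level at 96 h was 5.43-fold that of the control under PCB101 (95% interval 2.74 to 10.7), 11.3-fold under PCB153 (5.69 to 22.3) and 5.02-fold under PCB180 (2.44 to 10.3), as computed from the authors' deposited table. The PCB101 and PCB180 values were nearly equal and the PCB153 value lay above both. Its adjusted p in the authors' deposited table was 0.00234, 1.03e-08 and 0.000971 in the same order.

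The dioxygenase ptg000021l.252 was listed for the same 3 congeners, with larger folds than phenol 2-monooxygenase under PCB101 and PCB153 and a smaller one under PCB180. It was 12.7-fold higher under PCB101 (95% interval 4.84 to 33.5) and 21.6-fold higher under PCB153 (8.22 to 56.9), by the authors' deposited table. Under PCB180 it was 4.4-fold higher (1.59 to 12.2), and the authors' deposited table put its adjusted p at 0.0455, close to the limit for listing. It was the first of the 8 genes that rose under PCB101 and the second of 198 under PCB153 by size of rise, but stood at place 99 of 519 under PCB180.

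The dioxygenase ptg000008l.232 rose less than ptg000021l.252 and was listed for PCB101 and PCB153 only. Its fold over control was 2.34 under PCB101 (95% interval 1.56 to 3.50) and 2.78 under PCB153 (1.86 to 4.16), from the authors' deposited table. The PCB101 value had the largest adjusted p of any member, which the authors' deposited table gives as 0.0474.

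The genes annotated for steps after ring opening rose by less than ptg000021l.252 where they were listed. They did not all rise by less than the other dioxygenase, ptg000008l.232, which was 2.78-fold higher under PCB153. There the decarboxylase-like ptg000015l.273 rose more than ptg000008l.232 and the lactonizing enzyme less. Under PCB180 ptg000015l.273 was listed and ptg000008l.232 was not. Differences between genes were not tested. The carboxymuconate lactonizing enzyme (ptg000015l.409), which closes carboxymuconate to a lactone, was listed only for PCB153, where the authors' deposited table gives a log2 fold change of 1.25 ± 0.34 (SE) with an adjusted p of 0.0167. The carboxymuconolactone decarboxylase-like protein (ptg000015l.273) belongs to a family named for an enzyme of protocatechuate breakdown in bacteria, and the family also holds proteins that remove peroxides. It was 3.99-fold higher under PCB153 (95% interval 2.34 to 6.80) and 2.77-fold higher under PCB180 (1.58 to 4.85), and the authors' deposited table puts its adjusted p at 0.000195 and 0.00984.

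Catabolic 3-dehydroquinase (ptg000008l.233) had the largest rise of all 198 genes higher under PCB153 and the second largest of the 519 under PCB180. Its level was 25.3-fold that of the control under PCB153 (95% interval 8.73 to 73.5) and 12.6-fold under PCB180 (4.09 to 38.6), computed from the authors' deposited table. The intervals overlap from 8.73 to 38.6. Its adjusted p in the authors' deposited table was 4.27e-06 for PCB153 and 0.000884 for PCB180.

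The protein with the dihydroxypyridine monooxygenase domain (ptg000002l.374), a domain named for a flavin enzyme of bacterial nicotine breakdown, was the only member that fell. It was at 48.8% of the control level under PCB153 (95% interval 32.5 to 73.3) and at 35.7% under PCB180 (23.2 to 55.1), from the authors' deposited table. The PCB153 value, a log2 fold change of -1.03 ± 0.30 in the authors' deposited table, was the member value closest to the limit of 1.

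**Figure D1:**
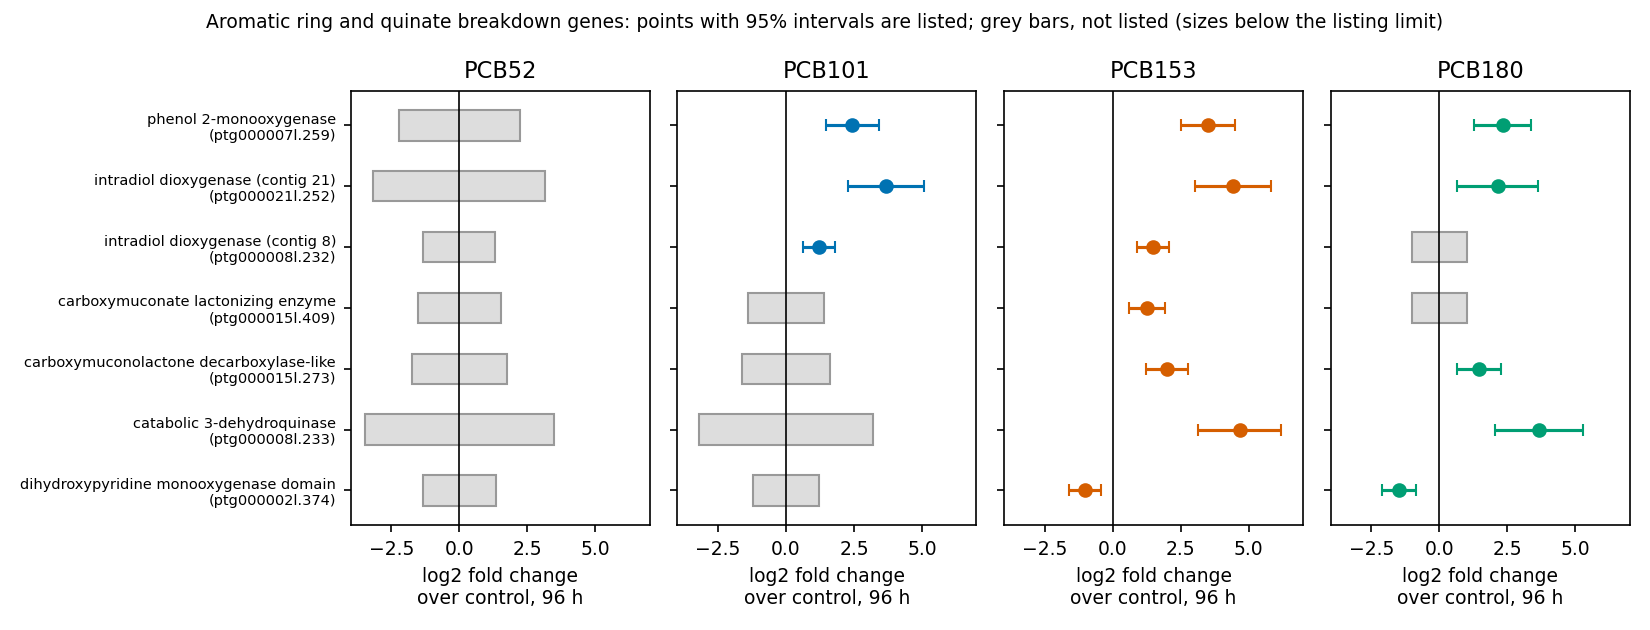
Log2 fold change over control at 96 h (horizontal axis) of the 7 members (rows) under each congener; points with bars are listed values with 95% intervals, and grey bars span the changes in either direction that are below the size sure to be listed. The members that rose lie at log2 fold changes of 1.22 to 4.66, and no member is listed for PCB52.

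A gene missing from a list may still have changed. At 96 h 13 of the 28 combinations of member and congener were not listed. The size of change that would have been listed follows from the largest p that was sure to pass and the member's SE under PCB153, scaled for PCB180, if the gene was tested there. For 3-dehydroquinase a log2 rise of up to 3.2 under PCB101 and up to 3.49 under PCB52 could have gone unlisted. For ptg000021l.252 this limit was 3.17 under PCB52 and for phenol 2-monooxygenase 2.24, which is close to the 2.33 listed for the latter under PCB180 in the authors' deposited table. The lists therefore do not show that these genes were unchanged under PCB52. Under PCB180 the limits were tighter, at a log2 fold change of 1 for ptg000008l.232 and 1.01 for the lactonizing enzyme, below the 1.48 ± 0.30 and 1.25 ± 0.34 of these genes under PCB153 in the authors' deposited table. For 24 h no such limit was computed, since the SE of the members at that hour is not known.

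The members also differed in precision. Among the 261 genes listed for PCB153, 1 had a larger SE than 3-dehydroquinase (0.78) and 6 had a larger SE than ptg000021l.252 (0.71), where the authors' deposited table has a median SE of 0.395. The mean normalized count over all samples was 645 for the former and 2269 for the latter, with no counts per group, and the median SE of the 72 listed genes over 1000 was 0.42 in the authors' deposited table. The dioxygenase ptg000008l.232 and the dihydroxypyridine domain protein had SE of 0.30 at mean normalized counts of 348 and 294 in the authors' deposited table. Gene lengths were not used here, so these counts give no order of expression among the members.

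**Figure D2:**
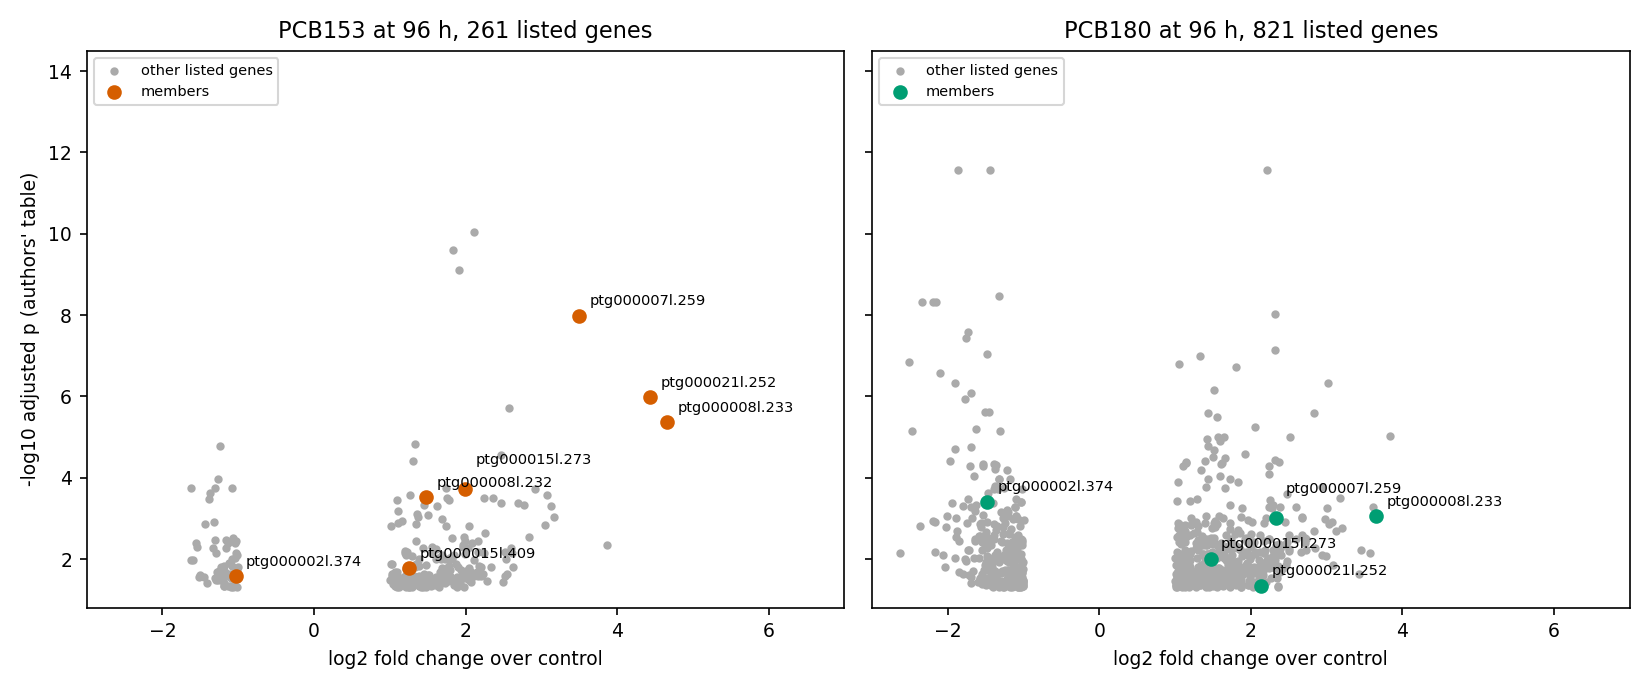
Genes listed for PCB153 (left) and PCB180 (right) at 96 h by log2 fold change over control and -log10 adjusted p of the authors' deposited table, with members in colour. Under PCB153 ptg000008l.233, ptg000021l.252 and ptg000007l.259 stand at ranks 1, 2 and 4 of 198 genes that rose; under PCB180 ptg000021l.252 lies at the lower edge, at an adjusted p of 0.0455.

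The congeners were given at the same dose by mass, 6 mg/L, and the same hour, so the members can be set side by side. Equal mass is not an equal number of molecules, since the congeners differ in chlorine atoms. Across 3 pairs of congeners there were 10 differences between log2 fold changes of members listed for both. They are given with 95% intervals that take a correlation of 0.5 for the shared control, and without p-values, since the members were picked from these comparisons. The intervals are not adjusted for their number. From PCB153 to PCB180, the pair with the hexachlorinated and the heptachlorinated biphenyl, ptg000021l.252 differed by -2.30 (interval -3.73 to -0.86), a fold under PCB180 that was 0.203 of that under PCB153. Phenol 2-monooxygenase differed by -1.17 (-2.18 to -0.15). The intervals of the remaining members reached across 0, at -1.01 (-2.59 to 0.57) for 3-dehydroquinase, -0.53 (-1.32 to 0.26) for the decarboxylase-like protein and -0.45 (-1.06 to 0.16) for the dihydroxypyridine domain protein. With no correlation between the comparisons, the interval of phenol 2-monooxygenase also reached across 0, from -2.60 to 0.27.

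All 5 members listed for both had a lower log2 fold change under PCB180, which for the dihydroxypyridine domain protein means a deeper fall. Over the 171 genes listed for both congeners the median difference was 0.01, with 82 genes lower and 89 higher under PCB180. Over the 122 genes that rose under both, the median difference was 0.10, and 48 of them rose less under PCB180. The rest of the 82 fell under both congeners and fell deeper under PCB180, among them the dihydroxypyridine domain protein. They were most of the genes that fell under both, so this member went with the majority of fallen genes. Ordered by this difference from the lowest, ptg000021l.252 stood at place 1 of 171, phenol 2-monooxygenase at 3 and 3-dehydroquinase at 4. These places take no account of the SE, which were large for ptg000021l.252 and 3-dehydroquinase. In the authors' own direct comparison of PCB180 with PCB153 the only listed gene was ptg000017l.227, at a log2 fold change of 0.86 ± 0.16 in the authors' deposited table. On the reckoning used above for unlisted genes, a difference of up to 3.17 for ptg000021l.252 and 2.24 for phenol 2-monooxygenase could have gone unlisted there, more than the differences above.

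Between PCB153 and PCB101, the pentachlorinated congener, phenol 2-monooxygenase was higher under PCB153 by 1.05 on the log2 scale (interval 0.07 to 2.04). The interval ran from -0.34 to 2.45 with no correlation. The same difference was 0.76 (-0.63 to 2.16) for ptg000021l.252 and 0.25 (-0.33 to 0.83) for ptg000008l.232, both reaching across 0. Of the 9 genes listed for both of these congeners, 8 rose under both, and all 8 rose more under PCB153. The other 1 fell under PCB101 and had a still lower value under PCB153. Between PCB180 and PCB101 phenol 2-monooxygenase differed by -0.11 (-1.13 to 0.90). For ptg000021l.252 the difference was -1.53 (-2.97 to -0.10), or -3.56 to 0.50 with no correlation. An interval that reaches across 0 does not show that the congeners acted alike. Each congener was compared with the same 96 h control, so the folds of a member are not independent measurements.

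**Figure D3:**
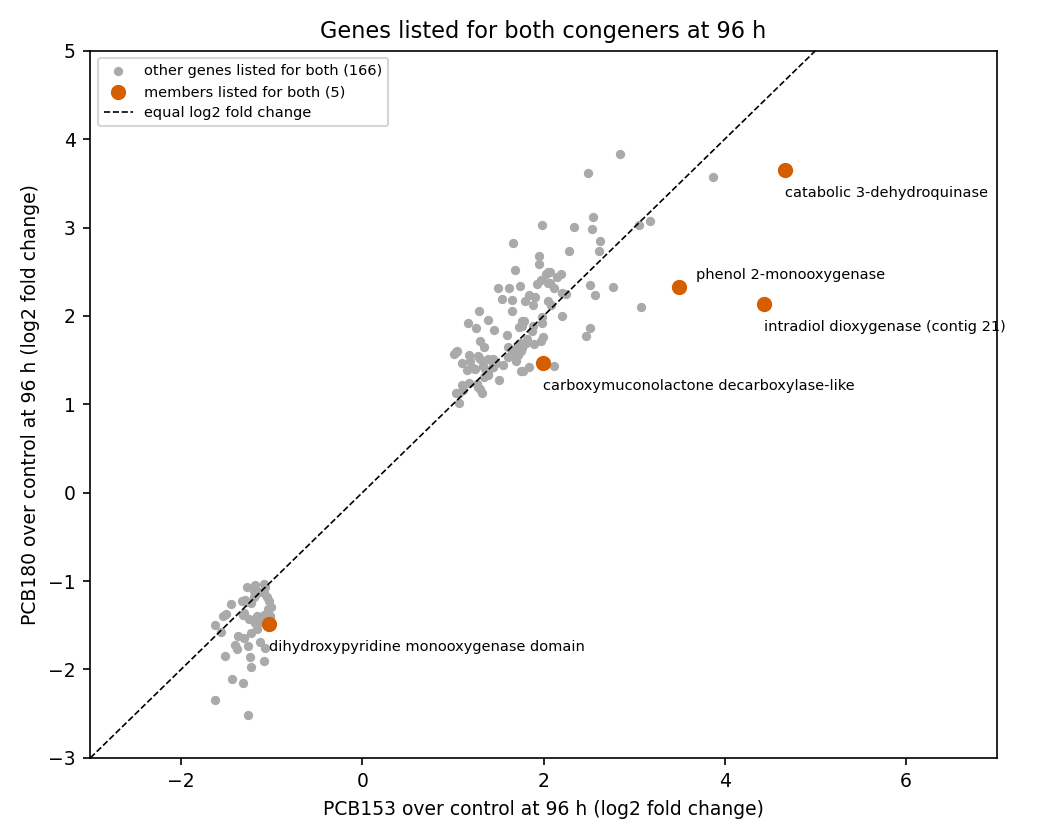
Log2 fold change over control at 96 h under PCB153 (horizontal axis) and PCB180 (vertical axis) for the 171 genes listed for both, with the 5 members in orange and a dashed line of equal values. All 5 members lie below the line, ptg000021l.252 the farthest at 4.43 and 2.14.

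The SE bear on the number of samples in each group. Over the 47 genes with a mean normalized count over 1000 listed for both, the squared SE under PCB180 was 1.11 times that under PCB153 (1.11 to 1.12), whereas equal groups of 5 would give 1. Of all sizes from 2 to 5 samples, 2 sets came within 0.005 of this ratio. These were 4 control, 5 PCB153 and 4 PCB180 samples, and 2 control, 4 PCB153 and 3 PCB180 samples. For ptg000017l.227 the squared SE of the direct comparison was 0.897 of that of PCB180 against control, where the first set gives 0.9 and the second 0.7. Fewer samples than the 5 of the labels may thus stand behind the PCB180 and control values at 96 h, if the variance scales with group size in the authors' fit, which was not tested.

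Gene numbers on the contigs, which played no part in the choice of members, put 5 of the 7 beside another listed gene. Of all 920 listed genes, 21.7% had a listed gene at the number directly before or after. The dioxygenase ptg000008l.232 and 3-dehydroquinase, ptg000008l.233, are such a pair, and the authors' deposited table lists both as higher under PCB153. Each of these members is counted among the 5 only through the other, so the 5 are not separate places. Directly before phenol 2-monooxygenase stands a cytochrome P450 (ptg000007l.258), of a family that adds oxygen to many substrates. It was listed for PCB153 only, at a log2 fold change of 2.01 ± 0.39 in the authors' deposited table. The general transcription factor IIA subunit 2 (ptg000007l.263) followed 4 numbers later and rose under PCB180, for which the authors' deposited table has 1.65 ± 0.58 on the log2 scale.

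The decarboxylase-like ptg000015l.273 was preceded by a ubiquitin-like protease (ptg000015l.272) that rose by 1.35 ± 0.36 under PCB153, by the authors' deposited table. Further along, an AMP-dependent synthetase or ligase (ptg000015l.276) fell and a protein with an RNA-binding RRM domain (ptg000015l.277) rose under PCB180, with log2 fold changes of -1.28 ± 0.44 and 1.24 ± 0.43 in the authors' deposited table. Before the dihydroxypyridine domain protein, an unannotated gene (ptg000002l.373) fell under PCB180 as it did, at -1.02 ± 0.32 in the authors' deposited table. After it, adenine deaminase (ptg000002l.379), which turns adenine into hypoxanthine, rose under PCB153, with a log2 fold change of 2.11 ± 0.55 by the authors' deposited table. No gene within 5 numbers of ptg000021l.252 or of the lactonizing enzyme was listed. Within 5 numbers 59.6% of all listed genes had a listed neighbour, against 5 of the 7 members, and within 10 numbers 83.2%, against the same 5 members (71.4%).

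**Figure D4:**
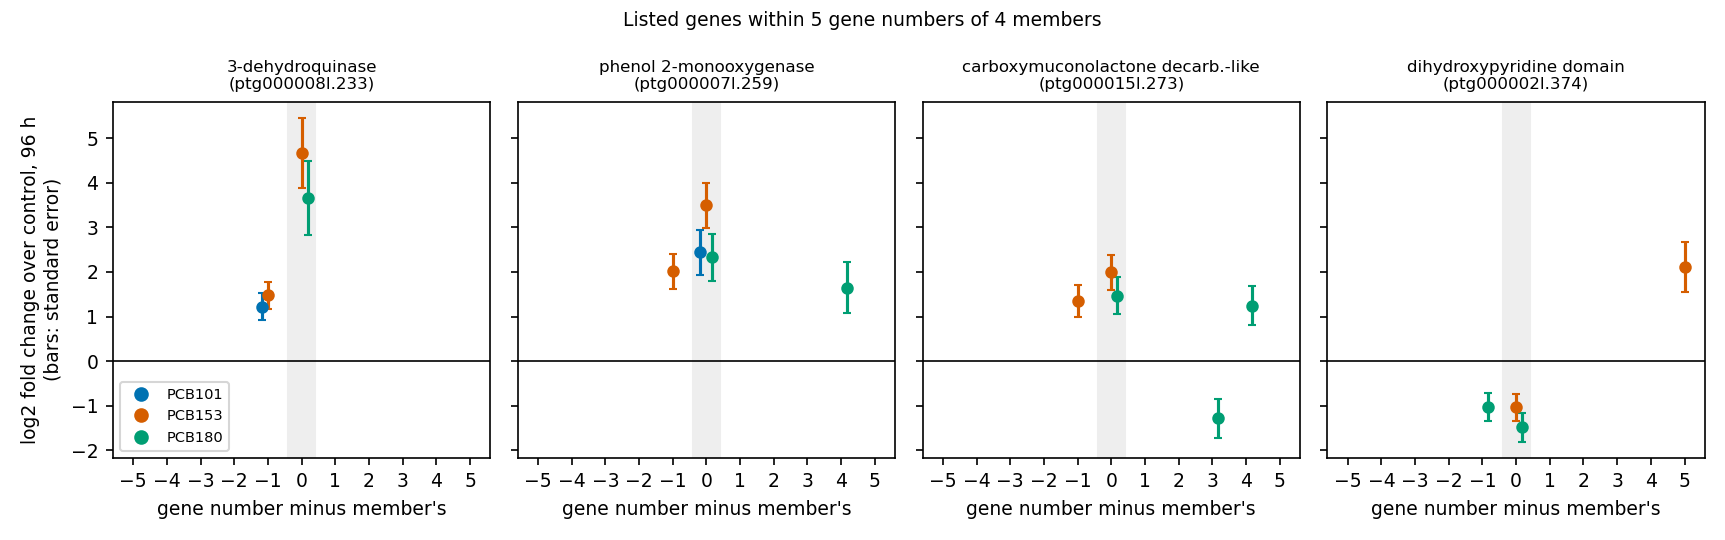
Listed genes within 5 gene numbers of 4 members (grey band at 0), with log2 fold change over control at 96 h and SE bars, by congener. The dioxygenase ptg000008l.232 stands directly before 3-dehydroquinase and the cytochrome P450 ptg000007l.258 directly before phenol 2-monooxygenase.

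A search of the annotations for words of aromatic and quinate breakdown found 6 listed genes beside the members, and 0 of them were listed for PCB101. The number of unlisted genes with such words is not known here, so no share can be given. Under PCB153 1 rose and 1 fell. Benzoate 4-monooxygenase (ptg000027l.308), a cytochrome P450 that hydroxylates benzoate, rose by 2.11 ± 0.27 under PCB153 and by 1.43 ± 0.29 under PCB180, both on the log2 scale by the authors' deposited table. Fumarylacetoacetase (ptg000019l.398), the last enzyme of tyrosine breakdown, fell under PCB153, where the authors' deposited table has -1.29 ± 0.38 on the log2 scale with an adjusted p of 0.0296.

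Under PCB180 2 of these genes rose and 3 fell. A quinate permease (ptg000008l.266), also annotated as a major facilitator transporter, rose by 1.32 ± 0.21 on the log2 scale, and the authors' deposited table puts its adjusted p at 1.03e-07. Its gene number is 33 after that of 3-dehydroquinase on the same contig. A dienelactone hydrolase domain protein (ptg000005l.846), of a family named for a step of chlorocatechol breakdown in bacteria, fell, at -1.07 ± 0.25 in the authors' deposited table. So did 6-methylsalicylate decarboxylase (ptg000017l.188), an enzyme of patulin synthesis in other fungi, at -1.0 ± 0.33 in the authors' deposited table. Nicotinate phosphoribosyltransferase (ptg000007l.277), which was matched by its name and serves the salvage of NAD, stood at -1.05 ± 0.33 in the authors' deposited table.

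Likeness of pattern was measured as the distance between log2 fold changes over the 96 h comparisons in which a member was listed. This distance depends on the size of the changes as well as on their order among the congeners. Among the 6 other genes listed for PCB101, PCB153 and PCB180, the nearest to ptg000021l.252 was phenol 2-monooxygenase, at a distance of 1.56, and the same distance made them nearest neighbours in both directions. Next to both came a Zn(2)-C6 transcription factor (ptg000015l.431), at 3.39 and 1.89. That gene was highest under PCB180, with log2 fold changes of 1.41, 1.91 and 2.21 for the 3 congeners in the authors' deposited table. The nearest of 8 candidates to ptg000008l.232 were a major facilitator transporter (ptg000017l.105) at 0.15 and a protein kinase (ptg000027l.189) at 0.24, over PCB101 and PCB153.

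Over PCB153 and PCB180, 170 other genes could be compared. The nearest to 3-dehydroquinase was an unannotated gene (ptg000021l.664) at 0.80, whose mean normalized count was only 10.6 in the authors' deposited table, followed by ptg000021l.252 at 1.53. The nearest to the decarboxylase-like protein was benzoate 4-monooxygenase (ptg000027l.308) at 0.12, before an FAD-binding protein (ptg000032l.13) at 0.17. The dihydroxypyridine domain protein was closest to a HIT domain protein (ptg000019l.161) at 0.07 and a thioredoxin (ptg000002l.457) at 0.09, both lower under PCB153 and PCB180 in the authors' deposited table. None of these distances takes account of the SE. For the decarboxylase-like protein the SE were 0.39 under PCB153 and 0.41 under PCB180, more than its distances to both genes named. The order of its nearest genes is therefore not settled. The candidates were themselves listed genes with a shared control, so these distances are descriptions.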

How the data were processed

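Polyadenylated RNA of 50 mycelium samples in 10 groups was sequenced. TRIzol was used for extraction, per the labels' protocols. For the aligner, counter, genome build, annotation and test program the sources used here give nothing. The authors deposited log2 fold changes with standard errors, a score (log2 fold change over its standard error in 1102 of 1102 rows), p-values with adjusted p-values, and a signal, the mean normalized count, with 1 value per gene. A copy rounded to 2 decimals adds annotations. Without values per sample, no test was refitted. The members and gene lists were chosen with earlier results of these data known.

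Genes tested per comparison were recovered as the number that turns most ratios of p to adjusted p into whole ranks (tolerance 1e-06). Intervals are 95% normal intervals of the authors' values. The size sure to be listed uses the larger of the largest listed p and the p that the next rank would need. The arithmetic was tested on simulated data (Python 3.11.15, SciPy 1.17.1). Genes named are the members, listed genes within 5 gene numbers, genes matched by pathway words (which also matched 6 of the 7 members) and the 2 nearest in pattern. The value of ptg000017l.227 is given as the only gene of the direct comparison, chosen after its value was seen. Alternatives were stricter limits, a filter on mean counts, other correlations, neighbour distances and words in the first annotation alone.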

Additional observations from a re-analysis of the deposited data

How the results depend on the processing

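No paired analysis was possible because the files hold comparisons and no values per sample, and for the same reason no replicate was left out. With an adjusted p under 0.001, 1 member rose under PCB101, 2 under PCB180 and 5 under PCB153. The member that fell under PCB153 was lost at an adjusted p under 0.01 and under 0.001 (0 left). At a log2 change of 2 or more in size, 2 members rose under PCB101, 3 under PCB153 and 3 under PCB180, and 0 fell. Leaving out the lowest 25% of listed genes by mean normalized count (77.5 or less) could change no count of members. The lowest mean normalized count of a member was 294, for ptg000002l.374. Listed neighbours numbered 9 within 5 gene numbers, 5 within 1 and 11 within 10. The share of members with a listed neighbour, 71.4% at each distance, was above that of all listed genes within 1 (21.7%) and 5 (59.6%) and below it within 10 (83.2%). With words in the first annotation alone, 1 other pathway gene rose under PCB180 in place of 2. The correlation of 0.527 that sizes of 4, 5 and 4 samples give, and the pair of PCB180 and PCB101, were chosen after seeing the data. With that correlation the intervals of ptg000021l.252 (-3.69 to -0.90) and phenol 2-monooxygenase (-2.15 to -0.18) between PCB180 and PCB153 stayed below 0. With no correlation the interval of ptg000021l.252 was -4.33 to -0.27. The rounded copy holds the same member values to 2 decimals, so it is no separate check of them.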
